A study of Mus musculus with 9 samples.

Results

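The loci of 4 target genes of WNT signalling, Axin2, Sp5, Lgr5 and Nkd1, were examined for binding of TCF1, T and SMAD1 in cultured mouse cells that model the origin of primordial germ cells. Each gene was taken as a fixed stretch of the mm9 genome: chr11:108740000-108850000 for Axin2, chr2:70280000-70345000 for Sp5, chr10:114870000-115060000 for Lgr5 and chr8:91010000-91130000 for Nkd1. These stretches held 477 of the 2654924 overlapping windows of 2 kb in the count tables, and 472 of them had usable input. The genes were chosen by the TCF1 counts of these same libraries, with the T and SMAD1 counts also known, so their values are a description and carry no test; all 5 windows without usable input lay at Lgr5. All 9 libraries came from C57BL/6 cells labelled as epiblast-like cells (EpiLC). TCF1, SMAD1 (12, 24 and 36 h) and the inputs titled BV and BVSC came from the Blimp1-mVenus reporter line (BV), and T, SMAD1 at 36 h and the input titled PV came from the Prdm14-mVenus reporter line (PV). Cells were grown as floating aggregates with or without BMP4 at 500 ng/ml and WNT3A at 50 ng/ml, and the cytokines of each single library, and the time of TCF1 and T, are not in the labels. Each group was a single library, and the cell type could not be checked because the assay measures binding and not expression.

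WNT ligands stabilise beta-catenin, which enters the nucleus and joins DNA-bound factors of the TCF/LEF family to switch on target genes. TCF1, the product of Tcf7, is one of these factors. Several targets feed back on the pathway: Axin2 is a scaffold of the complex that degrades beta-catenin, Nkd1 binds Dishevelled and dampens the signal, and Lgr5 is a receptor for R-spondins, which strengthen it. Sp5 is a zinc-finger transcription factor of the Sp family. T (Brachyury), itself a WNT target, is a T-box factor of the primitive streak and mesoderm, and SMAD1 carries the BMP signal to chromatin.

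The core letters of TCF/LEF sites were looked for in the promoters of these genes, to show what a TCF1 library could meet there. Promoter sequences, from 250 bases before to 50 bases after a start site, came from RefSeq on GRCm38.p6 and matched 3 of the 4 genes, all but Lgr5. The build of the counts is mm9, so these sequences were not placed on the windows, and whether a summit below lies on the promoter was not determined. The promoters of Sp5 (chr2:70474673-70474972, plus strand) and of Axin2 (chr11:108920099-108920398, plus strand) are shown as the promoter with the most of these letters and one with none, with every CTTTG of either strand in capitals.
Sp5: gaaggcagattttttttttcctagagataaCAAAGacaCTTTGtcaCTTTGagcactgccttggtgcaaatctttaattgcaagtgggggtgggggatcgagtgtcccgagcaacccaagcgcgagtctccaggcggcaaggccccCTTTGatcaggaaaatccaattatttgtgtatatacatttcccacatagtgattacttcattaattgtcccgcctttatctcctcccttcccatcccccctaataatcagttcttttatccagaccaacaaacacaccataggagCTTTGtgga
Axin2: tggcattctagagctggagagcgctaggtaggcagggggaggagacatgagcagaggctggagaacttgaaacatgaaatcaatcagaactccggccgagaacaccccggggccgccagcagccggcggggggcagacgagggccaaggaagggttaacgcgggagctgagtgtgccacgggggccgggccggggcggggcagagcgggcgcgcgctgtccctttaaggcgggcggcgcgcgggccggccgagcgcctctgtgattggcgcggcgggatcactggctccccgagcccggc
The Sp5 promoter held CTTTG 5 times, 4 times on the plus strand and 1 time on the minus strand (as CAAAG). Of 32851 RefSeq promoters of the same length, 53.9% held it at least 1 time and 0.286% held it 5 times or more. The longer forms CTTTGAT and CTTTGTT, which contain the core and so overlap it, each occurred 1 time in Sp5 and were found in 3.73% and 5.85% of promoters. Neither the Axin2 promoter nor that of Nkd1 held CTTTG on either strand. TCACACC, letters of the T half-site, was in none of these promoters on either strand and in 3.98% of all. The Sp5 promoter was 45% G and C, against 70% for Axin2, 58.3% for Nkd1 and a median of 52.7% over all promoters. These matches describe the letters of a short stretch only.

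TCF1 stood high over a narrow stretch at Axin2, Sp5 and Lgr5 and was much less raised at Nkd1. Each library's counts were divided by their autosomal mean, so that 1 is an average window, and enrichment was the scaled count plus 0.5 over the scaled input of the same line plus 0.5. Depth was 27360924 reads for TCF1 and 134657262 reads for input BV, and a mean window held 21.6 and 105.9 counts. At Axin2 the summit window, chr11:108781001-108783001, held 162 TCF1 counts against 38 in input BV, an enrichment of 9.31. The plain ratio of scaled counts there, without a pseudocount, was 20.9 (exact 95% interval 14.6 to 30.6, counting error only). At Sp5 the summit at chr2:70312001-70314001 held 180 counts against 89, an enrichment of 6.58 and a ratio of 9.91 (7.64 to 12.9). At Lgr5 the summit at chr10:115023001-115025001 held 156 against 86, with an enrichment of 5.88 and a ratio of 8.88 (6.78 to 11.7). At Nkd1 the highest window, chr8:91044001-91046001, held 47 against 79, with an enrichment of 2.15 and a ratio of 2.91 (1.99 to 4.23). Of all usable windows 0.0396% had as high a TCF1 enrichment, but this window was picked as the highest of its locus. The first 3 summits therefore passed an enrichment of 4, and the summit of Nkd1 did not.

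**Figure D1:**
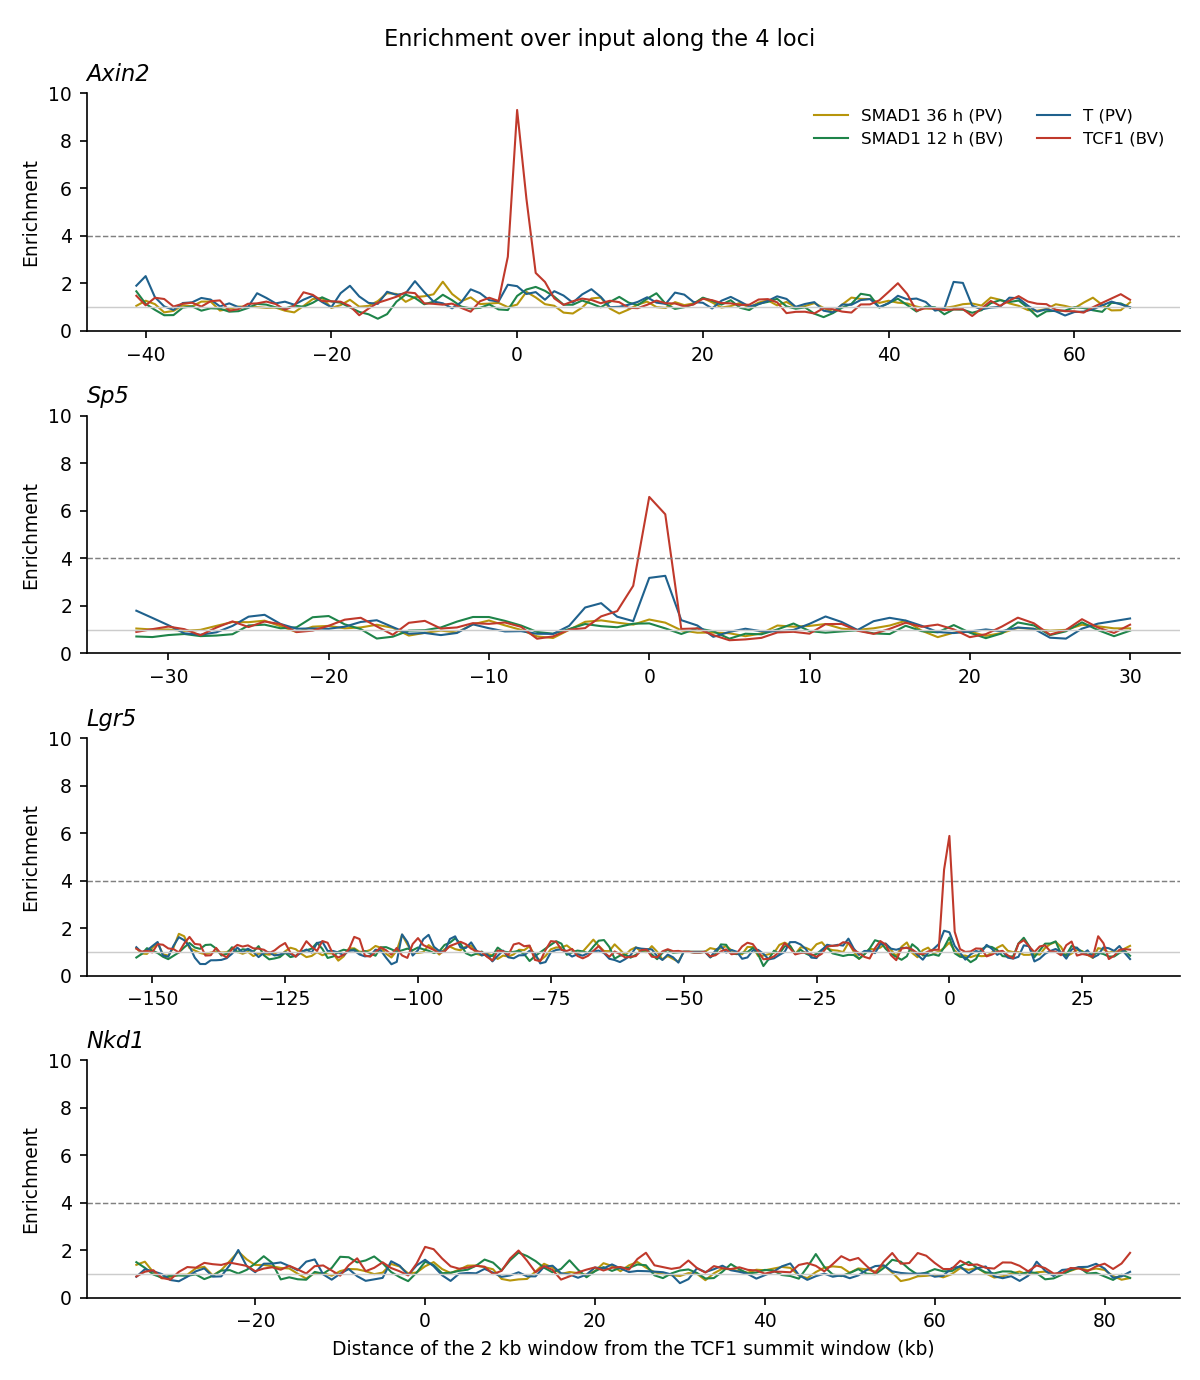
Enrichment over input in 2 kb windows along each locus, against distance in kb from the TCF1 summit window, for TCF1, T, SMAD1 at 12 h in BV and SMAD1 at 36 h in PV. The dashed line marks an enrichment of 4, which TCF1 passed at Axin2, Sp5 and Lgr5 in 2 windows each, and the grey line marks 1.

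A window was called when both its enrichment and its scaled count were at least 4. TCF1 had 2 called windows at each of Axin2, Sp5 and Lgr5 and 0 at Nkd1, which makes 6 of 472 usable windows in the loci. Over the genome 67 of 2367750 usable windows were called for TCF1 (0.00283%). The called window nearest the threshold was chr10:115022001-115024001 at Lgr5, with 4.46, and the highest one short of it was chr11:108780001-108782001 at Axin2, with 3.13. At the lower level of 2 on both measures, TCF1 had 12 windows in the loci, against 0.0919% of all usable windows. They formed a stretch of 6 kb at Axin2, of 4 kb at Sp5, of 3 kb at Lgr5 and a single window at Nkd1. Axin2 had another window just past this level, chr11:108822001-108824001, with an enrichment of 2.01 and a scaled count of 2.82. Away from the summits, in windows more than 5 kb off, the median TCF1 enrichment was 1.15 at Axin2, 1.09 at Sp5, 1.04 at Lgr5 and 1.28 at Nkd1. The highest of these windows reached 2.01 at Axin2, 1.50 at Sp5, 1.65 at Lgr5 and 1.99 at Nkd1, so the Nkd1 summit rose little above the rest of its locus.

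The order of the loci depended on whether the immunoprecipitated counts or the ratio to input were read. In TCF1 counts, Sp5, Axin2 and Lgr5 did not differ beyond counting error: Axin2 over Sp5 was 0.900 (0.723 to 1.12), Sp5 over Lgr5 1.15 (0.926 to 1.44) and Axin2 over Lgr5 1.04 (0.828 to 1.30). All of them exceeded Nkd1, by 3.83-fold for Sp5 (2.76 to 5.40), 3.45-fold for Axin2 (2.48 to 4.88) and 3.32-fold for Lgr5 (2.38 to 4.70). In the ratio to input, Axin2 stood first and its interval lay above those of the other loci, while the intervals of Sp5 and Lgr5 overlapped. Over input PV and over input BVSC, the intervals of Axin2 (9.37 to 28.1 and 10.8 to 33.6) overlapped those of Sp5 (7.56 to 18.6 and 7.32 to 16.9). The input itself was low at the Axin2 summit, with 0.427 of the input BV counts of the Sp5 summit (0.284 to 0.631). Scaled input there was 0.359 in BV, 0.478 in PV and 0.408 in BVSC, a level at or below which 2.03%, 6.58% and 3.97% of usable windows lay. The scaled TCF1 count was 7.49 at Axin2, 8.33 at Sp5, 7.22 at Lgr5 and 2.17 at Nkd1.

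Bins of 1 kb, solved by subtraction from the overlapping windows, placed the TCF1 reads more closely. At Lgr5 the bin chr10:115023001-115024001 held 132 of the 156 TCF1 reads of the summit window (84.6%, exact interval 78.0 to 89.9) and 50 of 86 in the input (58.1%, 47.0 to 68.7). Its enrichment was 8.80, and the scaled count of 12.2 was the highest in the bins around the 4 summits. At Sp5 the bin chr2:70313001-70314001 held 115 of 180 reads (63.9%, 56.4 to 70.9), with an enrichment of 8.49. The next bin at Sp5, from 70314001, held 2 TCF1 reads and 11 input BV reads, a ratio of 0.890 (0.0959 to 4.08). The bin after that, from 70315001, had a TCF1 ratio of 1.06 (0.576 to 1.84). At Axin2 the reads were spread over adjoining bins, 74 from 108781001 and 88 from 108782001, followed by a shoulder of 32 and 37 reads from 108783001 and 108784001. The bin from 108782001 held only 11 input BV and 5 input PV reads, and its TCF1 ratio was 39.2 (20.9 to 81.3). At Nkd1 the bin from 91044001 held 34 TCF1 reads against 70 in the input, and the next held 13 against 9. The TCF1 ratio was 2.38 (1.53 to 3.63) in the first of these bins and 7.07 (2.80 to 18.8) in the second. The enrichment of the second was 2.54. A bin poor in input thus lay inside or beside the summit at Axin2, Sp5 and Nkd1. It was rich in TCF1 reads at Axin2, nearly without them at Sp5 and held 13 at Nkd1.

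**Figure D2:**
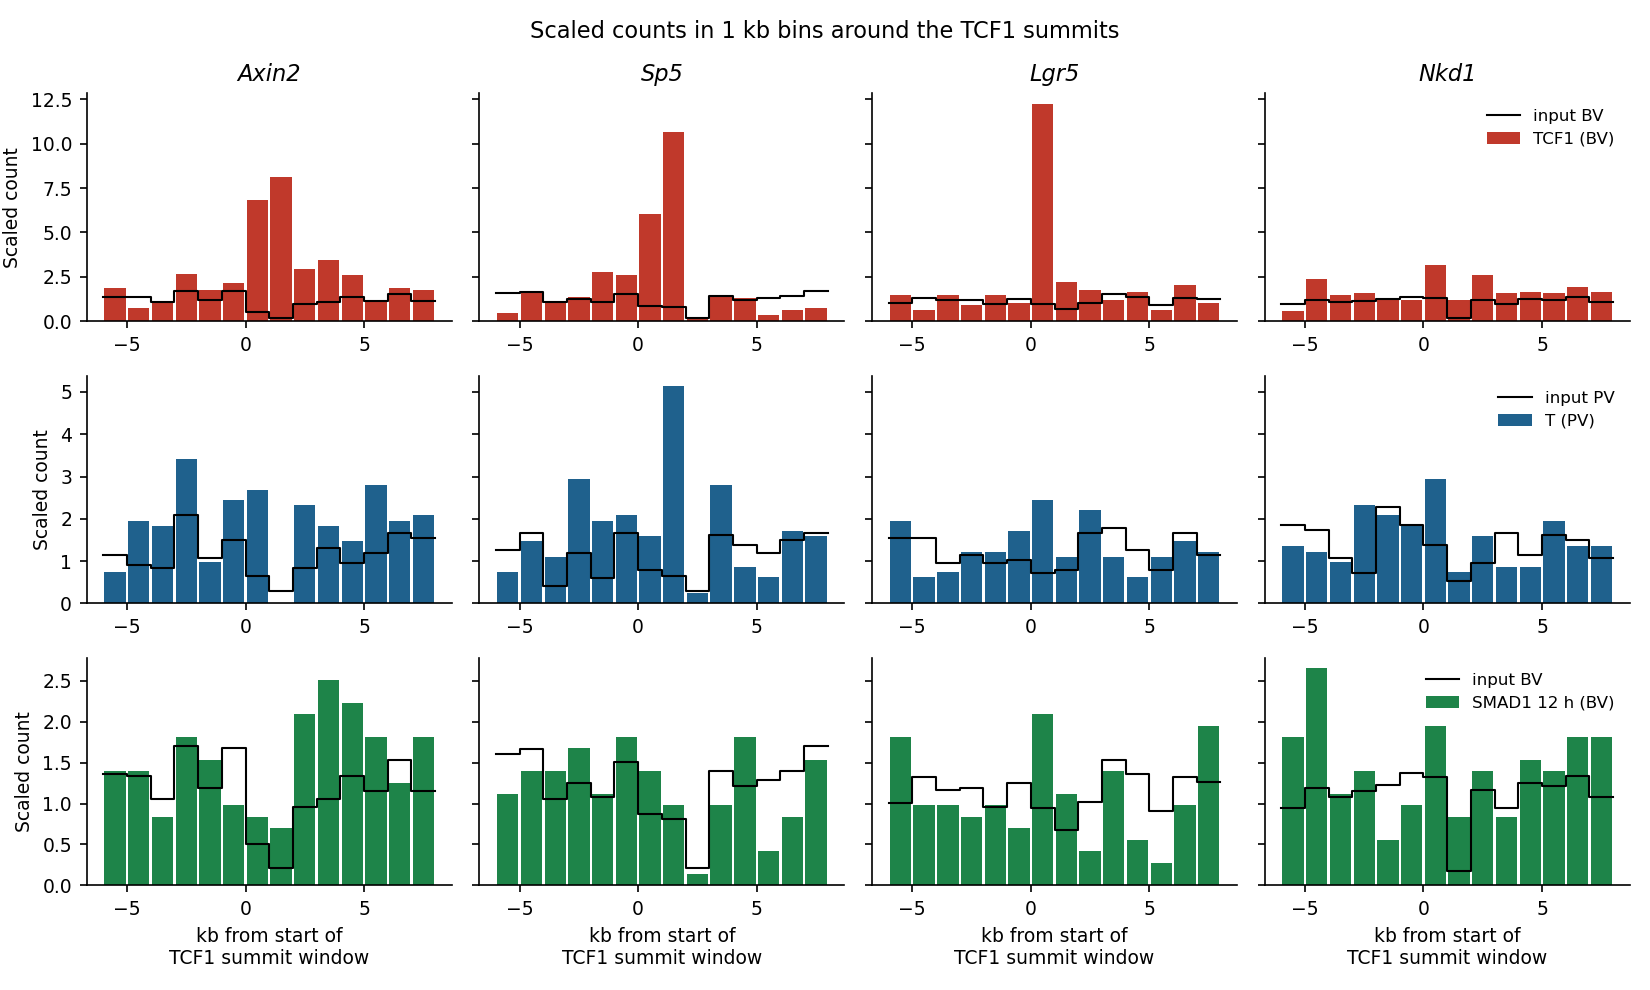
Scaled counts in 1 kb bins (bars) and the scaled input of the same line (black line) around the TCF1 summits, against distance in kb from the start of the summit window, for TCF1, T and SMAD1 at 12 h; each row has its own vertical scale. T shared the highest TCF1 bin at Sp5, where it held 42 reads, and had 0 reads in the highest TCF1 bin of Axin2, where input PV held only 5.

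T had its highest value at the TCF1 summit of Sp5 and was slightly raised at the others. At the Sp5 summit T held 55 counts against 24 in input PV, an enrichment of 3.17 and a ratio of 4.69 (2.85 to 7.92). Only 0.0889% of usable windows had as high a T enrichment. At Axin2 it held 22 against 16, with an enrichment of 1.89 and a ratio of 2.81 (1.41 to 5.73). At Lgr5 it held 29 against 25, with 1.82 and a ratio of 2.37 (1.34 to 4.23), and at Nkd1 30 against 32, with 1.60 and a ratio of 1.92 (1.13 to 3.26). All 4 intervals lay above 1, while 0.695%, 0.895% and 2.51% of usable windows were as high as Axin2, Lgr5 and Nkd1. Over input BV all 4 T intervals also lay above 1, but the summits were picked over this input, which favours windows where it is low. Over input BVSC that of Nkd1 did not, with a ratio of 1.30 (0.799 to 2.07), and those of the other genes did. The T intervals of all 4 genes overlapped one another, that of Sp5 included. T had no called window in any of the loci, against 0.0482% of all usable windows. It had 7 windows at the level of 2, 4 at Axin2 and 3 at Sp5, against 0.412% of all.

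By enrichment, the highest T window overlapped the TCF1 summit window at Sp5 and Lgr5 and lay farther off at Axin2 and Nkd1. Whether the loci differed in this beyond counting error was not tested. At Sp5 the highest T window, chr2:70313001-70315001 with 3.26, adjoined the TCF1 summit, and in 1 kb bins T and TCF1 peaked in the same bin. That bin held 42 T reads against 11 in input PV, an enrichment of 4.87 and a ratio of 7.81 (3.95 to 16.8). Another T window at Sp5, chr2:70309001-70311001 with 2.11, lay 3 kb before the summit, where TCF1 measured 1.55. At Lgr5 the highest of the T windows, chr10:115022001-115024001 with 1.89, was also a called TCF1 window, and the bin with the most TCF1 reads held 20 T reads against 12 (ratio 3.41, 1.59 to 7.65). At Axin2 the bin from 108781001 held 22 T reads against 11 (ratio 4.09, 1.90 to 9.35). The bin from 108782001, with the most TCF1 reads, held 0 T reads against 5 in input PV, which allows a scaled count of up to 0.367 (3 counts) and a ratio of up to 2.23. By enrichment the highest T window at Axin2, chr11:108741001-108743001 with 2.31, lay 40 kb before the summit, and TCF1 measured 1.08 there. The plain T ratio of that window, 2.84 (1.87 to 4.36), was close to that of the summit, 2.81 (1.41 to 5.73). At Nkd1 the highest T window, chr8:91022001-91024001 with 2.01, lay 22 kb before the TCF1 summit and reached a scaled count of only 1.71.

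SMAD1 stayed below an enrichment of 2 at the TCF1 summits at every time and in both lines. Depth of the SMAD1 libraries ran from 14925074 reads at 36 h in BV to 43354004 reads at 36 h in PV, and T had 20736671 reads. Over 16 values, 4 SMAD1 libraries at 4 summits, enrichment lay between 0.964 and 1.60 with a median of 1.31, and none reached 2. The share of usable windows as high ran from 1.62% for Lgr5 at 12 h to 52.6% for Lgr5 at 36 h in BV. It was 2.10% for Axin2 at 24 h and 2.78% for Nkd1 at 12 h. The highest SMAD1 values were thus about as high as T at Nkd1, with 1.60 and a share of 2.51%. At Axin2 SMAD1 held 11, 14 and 7 counts (12, 24 and 36 h) against 38 in input BV, with enrichments of 1.48, 1.47 and 1.27, and in PV 20 against 16, with 1.11. At Sp5 it held 17, 21 and 17 against 89, with enrichments of 1.26, 1.23 and 1.45, and in PV 42 against 24, with 1.42. These values lay close together, and no time or line stood apart at either gene.

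At Lgr5 SMAD1 held 23, 21 and 9 counts against 86, with enrichments of 1.60, 1.25 and 0.964, and 42 against 25 in PV, with 1.39. At Nkd1 it held 20, 16 and 13 against 79, with enrichments of 1.52, 1.10 and 1.29, and 49 against 32 in PV, with 1.33. The interval of the plain ratio lay above 1 in 4 of the 16: Axin2 at 24 h (1.06 to 4.01), Sp5 at 36 h in PV (1.01 to 2.96), Lgr5 at 12 h (1.19 to 3.16) and Nkd1 at 12 h (1.08 to 3.08). At the Axin2 summit the scaled SMAD1 count at 24 h was 0.763, below an average window, over a scaled input BV of 0.359. The intervals were not adjusted for their number. The BV libraries share input BV, so a low input count by chance raises all their ratios together. The summits were also picked over this input, which favours windows where it is low. One input over another at the same summits, 12 pairs (PV over BV, BVSC over BV and BVSC over PV), gave enrichments between 0.908 and 1.54, with 1 interval above 1. That one was input BVSC over input BV at Nkd1, with a ratio of 1.89 (1.31 to 2.72). Over the genome, windows at the level of 2 made up 0.00076% for input PV over BV, 0.00203% for BV over PV, 0.00431% for BVSC over BV and 0.0294% for BVSC over PV.

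Between times, none of 12 comparisons of SMAD1 counts at the summits in BV had an interval that left out 1. The lowest ratio was at Lgr5, where 36 h over 12 h was 0.477 (0.194 to 1.07), and the highest was at Nkd1, where 36 h over 24 h was 1.27 (0.561 to 2.81). With 7 to 23 counts a window, a change smaller than about the width of these intervals was not detectable at this depth. That TCF1 stood above SMAD1 in these windows follows from how they were picked and is not counted here. T exceeded SMAD1 of the PV line at Sp5, by 2.74-fold (1.80 to 4.19), and at Axin2, by 2.30-fold (1.20 to 4.44). At Lgr5 and Nkd1 the ratios of 1.44 (0.867 to 2.37) and 1.28 (0.784 to 2.06) did not differ from 1 beyond counting error.

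**Figure D3:**
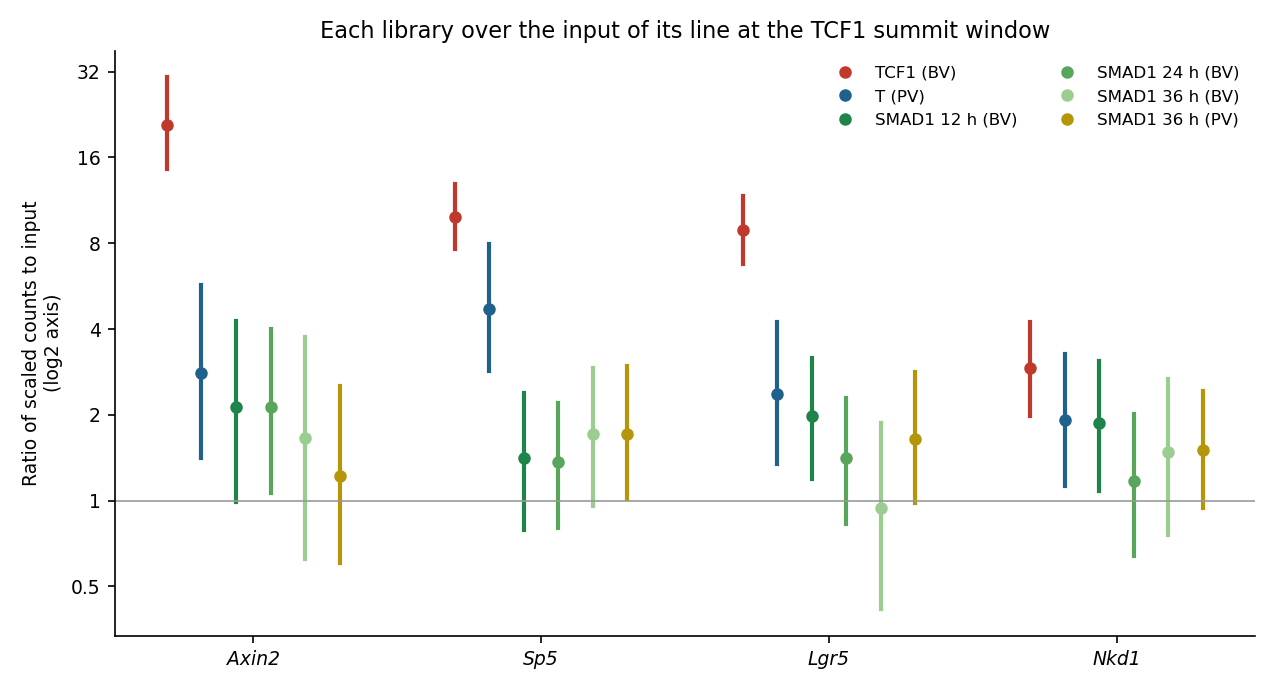
Plain ratio of scaled counts to the input of the same line (log2 axis) at the TCF1 summit window of each gene, with exact 95% intervals of counting error, for the 6 immunoprecipitated libraries. The windows were picked as the highest of TCF1, so its first place restates that choice; T had the next ratio at each gene, with an interval that overlapped at least 1 of those of SMAD1 at all 4, and SMAD1 ratios lay between 0.941 at Lgr5 and 2.14 at Axin2.

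SMAD1 windows elsewhere in the loci were few and weak. No SMAD1 window was called in the loci, against 0.00946% of all usable windows for the 12 h library, 0.00405% for that of 24 h, and 0.000887% (BV) and 0.00557% (PV) for those of 36 h. At the level of 2 the 12 h and 24 h libraries had 0 windows in the loci, against 0.123% and 0.0276% of all usable windows. The 36 h libraries had 3, all at Axin2. In BV at 36 h they were chr11:108769001-108771001 and chr11:108770001-108772001, with 2.14 and 2.26, against 0.0429% of usable windows past this level in that library. The second of these held 41 counts against 134 and was also past this level for T, with 2.10 (51 counts against 41 in input PV), while TCF1 measured 1.59. The other SMAD1 libraries measured 1.39 (12 h), 1.46 (24 h) and 1.43 (36 h, PV) in that window. In PV at 36 h chr11:108773001-108775001 had 2.07, with 84 counts against 31, against 0.0374% of usable windows. At 12 h the highest SMAD1 window of Axin2, chr11:108783001-108785001 with 1.85 (33 counts against 107), lay on the shoulder of the TCF1 stretch, where TCF1 measured 2.44. At Lgr5 the highest SMAD1 window at 12 h was the TCF1 summit itself, and at Sp5 the same held for SMAD1 at 36 h in PV.

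Over whole loci, summits included, TCF1 stood slightly above its genome mean at all 4 genes and T at all but Lgr5. Every SMAD1 library did so at Axin2 and Nkd1. Summed over every other window, TCF1 over input BV was 1.32 (1.25 to 1.38) at Axin2, 1.27 (1.19 to 1.36) at Sp5, 1.15 (1.11 to 1.20) at Lgr5 and 1.43 (1.36 to 1.50) at Nkd1. These TCF1 sums hold the summit reads, and the genes were chosen by TCF1 counts. More than 5 kb from the summits the median TCF1 enrichment was 1.15, 1.09, 1.04 and 1.28 in the same order. The medians of their chromosomes were 1.04, 0.985, 0.953 and 0.992. T over input PV was 1.36 (1.28 to 1.46) at Axin2, 1.23 (1.12 to 1.34) at Sp5, 0.995 (0.938 to 1.06) at Lgr5 and 1.10 (1.04 to 1.17) at Nkd1. SMAD1 in BV (12, 24 and 36 h) was 1.09 (1.03 to 1.16), 1.13 (1.07 to 1.19) and 1.26 (1.18 to 1.34) at Axin2, the last close to TCF1, and in PV it was 1.16 (1.10 to 1.23). At Nkd1 it was 1.23 (1.16 to 1.30), 1.19 (1.12 to 1.26) and 1.20 (1.12 to 1.28) in BV and 1.14 (1.08 to 1.20) in PV. SMAD1 lay between 1.00 and 1.09 at Sp5 and between 1.01 and 1.07 at Lgr5, with 1 of 4 intervals above 1 at each, those of 24 h at Sp5 and of 36 h in BV at Lgr5. The inputs differed over these stretches too. Input PV over input BV was 0.901 (0.860 to 0.944) at Axin2 and 1.27 (1.22 to 1.32) at Nkd1, and input BVSC over input BV was 0.689 (0.655 to 0.724) at Axin2 and 1.14 (1.10 to 1.19) at Nkd1. The median enrichment of input PV over input BV was 0.893 over the whole chromosome of Axin2 and 1.10 over that of Nkd1. For input BVSC over input BV these medians were 0.856 and 1.12. Input PV at Axin2 and input BVSC at Nkd1 were thus near the level of their chromosome. Input PV at Nkd1 and input BVSC at Axin2 lay farther from 1 than it. The part of these input levels in the locus sums was not tested. At the Nkd1 summit the 3 inputs held scaled counts of 0.746 in BV, 0.955 in PV and 1.41 in BVSC. TCF1 enrichment there was 2.15 over input BV, 1.84 over input PV and 1.40 over input BVSC. At the Axin2 summit it was 9.31, 8.18 and 8.81 over the same inputs, at Sp5 it lay between 6.58 and 7.25, and at Lgr5 it was 5.88, 6.19 and 5.32.

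Over the genome, called TCF1 windows merged into 41 regions, of which 3 were those of Axin2, Sp5 and Lgr5. By enrichment they ranked first, 6th and 9th, and by scaled TCF1 count 17th, 11th and 18th. By the T enrichment at their summits Sp5 ranked 2nd of the 41, behind a region on chromosome 4 at 107405001 with 13.0, and Axin2 and Lgr5 ranked 11th and 13th. The 38 regions elsewhere had a median enrichment of 1.40 for T (0.842 to 13.0) and of 1.43, 1.30, 1.37 and 1.18 for SMAD1 (12, 24 and 36 h in BV, then 36 h in PV). The medians over the 4 summits were 1.85 for T and 1.50, 1.24, 1.28 and 1.36 for SMAD1 in the same order. The regions most like the 4 genes were sought by Euclidean distance in log2 enrichment over the 6 immunoprecipitated libraries from the median of the 4 summits. The nearest 3 were chr1:74633001-74636001 (distance 0.45), chr3:130807001-130810001 (0.47) and chr9:51573001-51576001 (0.52). Their TCF1 enrichments were 6.92, 6.83 and 7.34, and those of T were 1.92, 1.50 and 1.91. Like the Axin2 summit, the region on chromosome 9 had a low scaled input, 0.519, whereas the other 2 had 1.08 and 0.935.

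**Figure D4:**
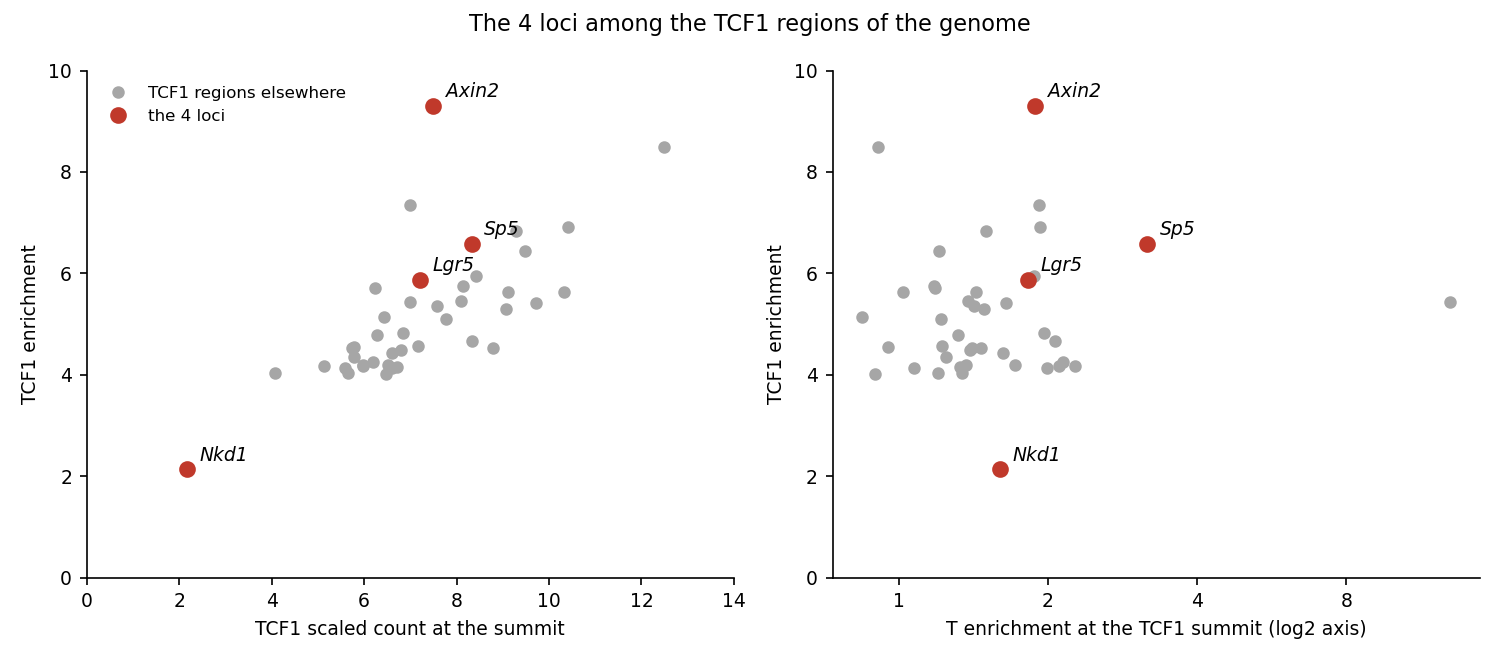
TCF1 enrichment of the summits of the 4 genes (red) and of the 38 TCF1 regions called elsewhere (grey), against the scaled TCF1 count (left) and against T enrichment at the same window (right, log2 axis). Axin2 is highest in enrichment but not in count, and Sp5 is second to a single region in T. Nkd1 lies below all called regions in TCF1, which follows from the cut of 4 that those regions had to pass.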

How the data were processed

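Per the submitters' processing notes, Bowtie 0.12.8 and build mm9 were used; whether duplicates were removed is not given in the sources used here. The tables the authors deposited hold raw read counts in windows of 2 kb at steps of 1 kb. Reads were single-end of 50 bp, per the labels' protocols. From these, counts were scaled to a mean of 1 over all windows of chromosomes 1 to 19, and enrichment took a pseudocount of 0.5 and the input of the same line. Usable windows had a mean scaled input of at least 0.25 and no input above 3. Because each read falls in 2 windows, depth and locus sums used every other window, and 1 kb bins were solved by subtraction along each chromosome. No bin in the loci came out below 0 except in input BVSC, where 47.4% of all bins did, so its bins were not used. Windows of input BVSC thus did not add up from 1 kb bins, and its reads may have been counted by another rule. Every window value, locus sum and interval that uses input BVSC carries this limit. Each ratio has a 95% interval from the Clopper-Pearson bounds of a binomial split; amplified reads are not independent molecules, so it covers counting error only. With 1 library a group there is no replicate spread and no p-value. Enrichment, calling and bin solving were tested on simulated data. In each locus the strongest run of windows at 2 or more in TCF1 enrichment and scaled count was the TCF1 peak, and its highest window the summit. The members and lists were chosen with earlier results of these data known. Other WNT pathway genes had been listed for the same measurement, but an mm9 annotation was not used here, so they were not measured. Alternatives covered pseudocount, scaling, input, bin size, thresholds and the input filter. Python 3.11.15, numpy 2.4.6, pandas 2.3.3, scipy 1.17.1 and matplotlib 3.10.9 were used.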

Additional observations from a re-analysis of the deposited data

How the results depend on the processing

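Of 294 recomputed values of 42 results, 286 stayed within a counting interval around the value reported, or within 1.5 times the reported number of windows. For enrichments the relative width of the interval was taken from the plain ratio without a pseudocount, which makes it a wide tolerance. TCF1 at Lgr5 with a pseudocount of 1, 4.53 against 5.88, counted as within it. With a pseudocount of 1, TCF1 enrichment fell to 6.25 at Axin2 and 5.07 at Sp5, both still above 4. Over input BVSC, TCF1 at the Nkd1 summit was 1.40, below the level of 2 that made it a peak. In 1 kb bins, TCF1 at Lgr5 rose to 8.80, T at the highest TCF1 bin of Axin2 was 0.63, and 1 T bin was called, where 0 windows were. The share of all bins called was not computed. At a threshold of 3, 1 T window was called in the loci, against 0.0987% of all usable windows. At a threshold of 6 the called TCF1 windows fell from 6 to 2, against 0.000422% of all. SMAD1 had 0 called windows in the loci under each threshold, scaling, input and bin size tried. Over all usable windows the SMAD1 shares were 0.003% to 0.0182% at a threshold of 3 and 0.000127% to 0.00389% at 6. At shares so low, 0 in the loci does not set them apart. Over these alternatives TCF1 ran from 6.25 to 12.7 at Axin2, 5.07 to 8.49 at Sp5, 4.53 to 8.80 at Lgr5 and 1.40 to 2.54 at Nkd1, and T at Sp5 from 2.54 to 4.87. No paired analysis was possible because each group is 1 library. At the summits SMAD1 rested on 7 to 49 counts a library, which sets the width of its intervals.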
